A study of Mus musculus with 48 samples.

Results

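TRBV31, known in the older nomenclature as Vβ14, is the variable (V) segment of the mouse T cell receptor (TCR) β locus that lies downstream of all other β segments. Its clones were taken as every clone assigned to TRBV31 in 48 TCRβ libraries. Before any draw of reads they made up 25758 of 959731 clone entries, and 20324 of 744876 distinct clones. After the libraries were brought to 6 reads per sorted cell, 19040 of 699661 distinct clones remained. The 4 repertoires compared were the CD4+ and the CD8+ T cells of Lewis lung carcinoma (LLC) tumors and, gated as CD44hi, those of the tumor-draining lymph nodes (dLNs). All came from 4 female C57BL/6 mice, 8 weeks old, which carried a subcutaneous LLC tumor on each side of the back and were analysed on day 13. Each tumor was sequenced as 2 fragments, so that 32 libraries were from tumors and 16 from dLNs. The cells had been sorted for TCRβ and were negative for the antibody given intravenously before death and for other lineages. Tumor cells were not gated on CD44, so every tumor to dLN difference below is also a difference of gates, and regulatory and conventional CD4+ cells were not separated. No tumor-free mouse was analysed here.

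A β chain gene is made by joining a V, a diversity (D) and a joining (J) segment, and the bases at the 2 joints form the third complementarity-determining region (CDR3), the most variable part of the receptor. There are 2 clusters, each with 1 D segment, a set of J segments and 1 constant segment, and a D segment of the first cluster can join the J segments of both. Other V segments lie upstream and are joined by deletion of the DNA in between. TRBV31 lies in the opposite orientation and is joined by inversion, which keeps that DNA on the chromosome. In the GRCm38 annotation Trbv31 is at chr6:41557691-41558452 on the minus strand, with 2 exons in each of its transcripts. It was the 1 V gene on the minus strand, against 21 V genes on the plus strand. It begins 9338 bases after the end of the constant segment Trbc2 (chr6:41546730-41548352, plus strand) and 13834 bases after the end of the J segment Trbj2-7. The nearest V segment on the other side of the D and J segments, Trbv30 (chr6:41281376-41281990, plus strand), ends 251210 bases before Trbd1.

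The germline 3′ end of TRBV31 is shown because the CDR3 sequences below begin with a part of it. It is the 3′ end of the Trbv31 transcript in GENCODE that reaches farthest (GRCm38, minus strand), with the 16 bases from the conserved cysteine codon onward in capitals. The other annotated transcript has only 14 bases from that codon onward. Whether the last bases shown can enter the CDR3 is therefore not settled by the annotation.
Germline TRBV31 end: ctggcttctacctcTGTGCCTGGAGTCTCA
At least 11 of these 16 bases were intact in 84.0% to 85.7% of TRBV31 clones (group means over 4 mice). All of the first 14 were intact in between 39.6% ± 1.6 of the clones from dLN CD8+ cells and 42.7% ± 1.7 of those from tumor CD4+ cells (SD, n = 4 mice). The match ended at base 14 in 33.3% to 36.1% of clones and reached base 16 in 1.15% to 1.35% (group means).

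The libraries held between 146 and 1150 TRBV31 clones each. Their deposited depth was 326582 to 4840722 reads, and 131070 to 2035380 reads were kept. One read was then worth between 4.91e-05% and 0.000763% of a library, and a clone listed at 0 could be present at up to 0.000147% to 0.00229% (3 reads). For the TRBV31 share of clones on 1 side of a mouse, the distance between the bounds of the 95% Wilson interval, divided by 2, was at most 0.47 percentage points, and it covers counting error only. Left and right samples and fragments were joined per mouse, which gave 4 values in each group.

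TRBV31 was more frequent among CD4+ than among CD8+ clones, in tumors and in dLNs, and was highest in dLN CD4+ cells. It made up 5.70%, 6.18%, 6.43% and 6.44% of the distinct clones of dLN CD4+ cells in the 4 mice (mean 6.19% ± 0.35, SD, n = 4). In tumor CD4+ cells the 4 values were 3.57%, 3.65%, 3.93% and 4.00% (mean 3.79% ± 0.21). In dLN CD8+ cells they were 1.95%, 1.96%, 2.0% and 2.08% (mean 2.0% ± 0.06), and in tumor CD8+ cells 1.67%, 1.70%, 1.78% and 1.83% (mean 1.74% ± 0.07). No value of a group overlapped with a value of another group. Of the 8 left and right samples, the CD4+ value was the higher one on 8 sides of tumors and on 8 sides of dLNs.

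The CD8+ share of clones was lower than the CD4+ share by 1.11 on the log2 scale in tumors (adjusted p = 2.6e-25) and by 1.63 in dLNs (adjusted p = 1.6e-34). These values are from edgeR's quasi-likelihood test over 22 V segments with Benjamini-Hochberg adjustment. The CD4+ share was 2.17 times the CD8+ share in tumors and 3.10 times in dLNs. The exact permutation test, which did not use the pairing of samples by mouse, gave p = 0.0286 for both, the smallest value that 4 against 4 allows. Shares of V segments differed widely between the subsets, since 86.4% of the tested V segments passed in tumors and 95.5% in dLNs, and the change of TRBV31 is therefore given by its place. It had the largest fall of the 22 segments in dLNs and the second largest in tumors, where TRBV13-2 fell further.

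**Figure D1:**
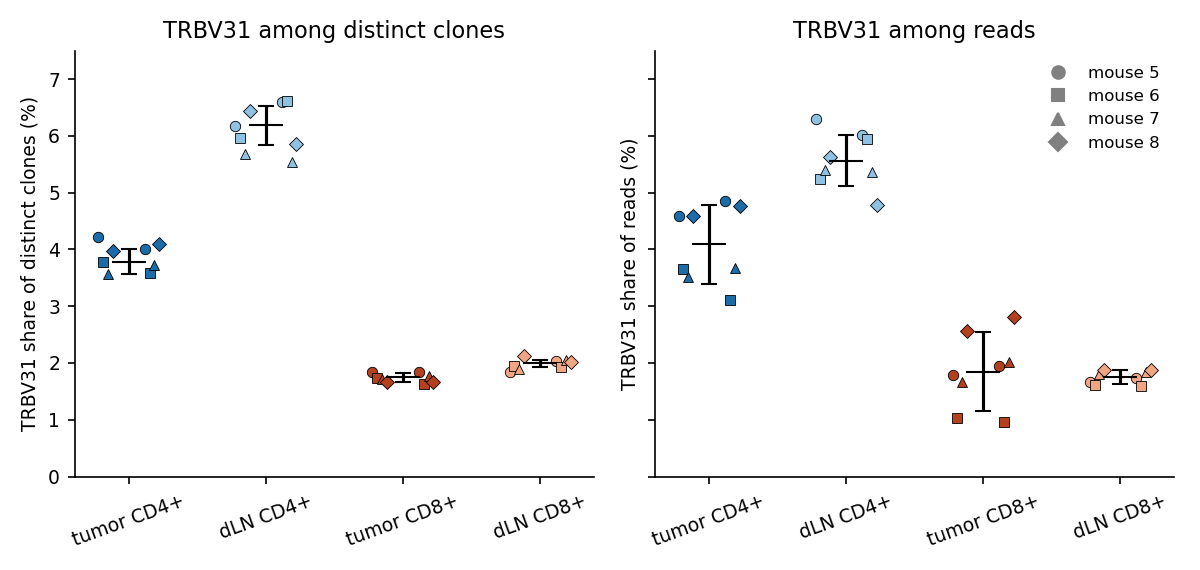
TRBV31 share of distinct clones (left panel, %) and of reads (right panel, %) in the 4 groups. Each point is 1 side of 1 mouse, with the left side to the left, and bars are the mean and SD over 4 mice. By clones the groups lie apart, from 1.74% in tumor CD8+ to 6.19% in dLN CD4+ cells, whereas by reads the tumor CD8+ points spread on both sides of the dLN CD8+ points.

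TRBV31 also took a smaller share of clones in tumors than in dLNs. In CD4+ cells the tumor share was lower by 2.40 percentage points (adjusted p = 5.9e-18, log2 change -0.72, edgeR), lower in 4 of 4 mice and on 8 of 8 sides. This was the largest fall among the 22 V segments, of which 81.8% passed. In CD8+ cells the fall was 0.25 percentage points (adjusted p = 0.00048, log2 change -0.20, edgeR), also in 4 of 4 mice, and 86.4% of the segments passed. Its log2 change was -0.13 with TMM scaling and -0.30 with equal reads per library, both past the threshold. The gap between the subsets was smaller in tumors than in dLNs by 0.52 on the log2 scale (adjusted p = 4.6e-09, edgeR, 72.7% of segments passed, exact permutation p = 0.0286). Whether the CD44 gate of the dLN cells takes part in these differences was not tested.

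By reads, which follow the number of cells and the TCR RNA per cell together, the subsets differed in the same way. In bulk samples fewer cells with a segment and less RNA per cell cannot be told apart. TRBV31 made up 3.40% to 4.69% of the reads of tumor CD4+ cells (mean 4.09% ± 0.69) and 1.00% to 2.69% of those of tumor CD8+ cells (mean 1.85% ± 0.69). In dLNs the range was 5.13% to 6.18% for CD4+ cells (mean 5.56% ± 0.45) and 1.61% to 1.87% for CD8+ cells (mean 1.75% ± 0.12). The CD8+ share of reads was lower by 1.15 on the log2 scale in tumors (edgeR, adjusted p = 0.0011, 50% of segments passed, 1.94 without the most abundant TRBV31 clone of each repertoire) and by 1.67 in dLNs (adjusted p = 3.4e-05, 45.5% passed).

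The tumor and dLN shares of reads did not differ by edgeR. The log2 difference was 0.08 in CD8+ cells (adjusted p = 0.76, 45.5% of segments passed) and -0.44 in CD4+ cells (adjusted p = 0.40, 9.09% passed), and the difference of the subset gap was 0.52 (adjusted p = 0.23, 36.4% passed). In CD4+ cells the tumor share was nevertheless lower in 4 of 4 mice without overlap (exact permutation p = 0.0286). The most abundant TRBV31 clone held 71.3% and 65.7% of the TRBV31 reads of CD8+ tumors in mice 5 and 8, 41.9% in mouse 6 and 21.1% in mouse 7, against 0.73% to 5.48% in dLN CD8+ cells. Without that clone, an alternative added after the data were seen, the tumor CD8+ share of reads was 0.54%, 0.58%, 1.46% and 0.94% in mice 5 to 8, a fall that the removal itself brings. The log2 difference from the dLNs was then -0.96 (edgeR, adjusted p = 0.0097), which is no test of the tumor share for that reason.

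Beside the other segments, TRBV31 was 6th by clones among V segments in dLN CD4+ cells, 11th in tumor CD4+, 17th in dLN CD8+ and 18th in tumor CD8+ cells. Its neighbours in tumor CD4+ cells, TRBV26 (3.86% ± 0.32) and TRBV15 (3.76% ± 0.35), did not differ from it beyond their spread. The same held in dLN CD4+ cells for TRBV19 (6.46% ± 0.16) and TRBV13-3 (5.99% ± 0.25). In dLN CD8+ cells TRBV20 (1.97% ± 0.04) overlapped with it, whereas TRBV26 (2.69% ± 0.08) did not. In tumor CD8+ cells TRBV20 (1.84% ± 0.05) overlapped and TRBV2 (1.55% ± 0.07) did not. The segments whose share of clones varied most like that of TRBV31 over the 32 left and right repertoires were TRBV2 (Pearson r = 0.97), TRBV26 (r = 0.96) and TRBV5 (r = 0.96). This likeness lay between the groups, since within the 4 groups r ranged from -0.27 to 0.73 for TRBV2, from -0.27 to 0.49 for TRBV26 and from -0.39 to 0.48 for TRBV5. The shares of a library add up to 100%, so the segments are not independent of each other.

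**Figure D2:**
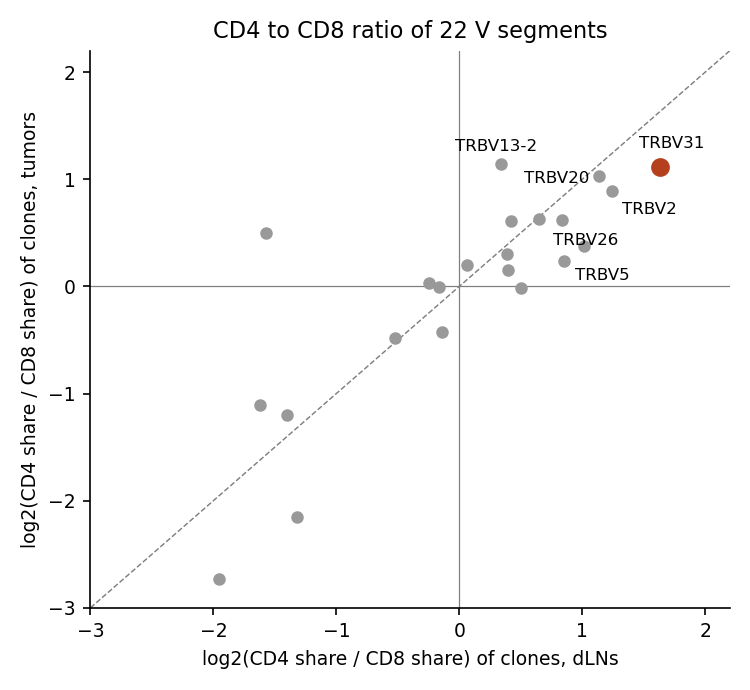
CD4 to CD8 ratio of the mean share of clones for 22 V segments, as log2 values, in dLNs (x axis) and tumors (y axis). Each point is a V segment, the dashed line marks equal ratios, and TRBV31 (larger point) lies farthest to the right, at 1.63 in dLNs and 1.12 in tumors.

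The J partners of TRBV31 were next compared with those of all other V segments in the same repertoires. TRBV31 joined J segments of both clusters, with most clones in the TRBJ2 cluster. In tumor CD4+ cells 64.2% ± 1.4 of its clones used TRBJ2 (62.2% to 65.5%), against 65.1% ± 0.4 of the other clones (limma over V segments, adjusted p = 0.43, 54.5% of segments passed). This difference of -0.88 percentage points was -0.18 without mouse 5 and -1.43 without mouse 6. In tumor CD8+ cells the shares were 70.1% ± 1.2 and 70.2% ± 0.3 (adjusted p = 0.85, limma, 81.8% passed). Weighted by reads they were 82.5% and 55.8%, 26.7 percentage points higher with TRBV31 (limma, adjusted p = 0.046). The leading TRBV31 clone of each mouse used a TRBJ2 segment and held 21.1% to 71.3% of these TRBV31 reads. By reads the other groups had the opposite sign, with -8.67 percentage points in tumor CD4+, -4.97 in dLN CD4+ and -2.64 in dLN CD8+ cells. In dLN CD4+ cells the shares of clones were 66.2% ± 1.1 and 66.4% ± 0.6 (adjusted p = 0.72, limma, 36.4% passed). In dLN CD8+ cells TRBV31 used TRBJ2 less than the other segments did, in 64.9% ± 1.4 against 68.9% ± 0.4 of clones, a fall of 3.96 percentage points (limma, adjusted p = 0.00079, 77.3% passed, lower in 4 of 4 mice). The difference from the other segments was further down in dLN than in tumor CD8+ cells by 3.87 percentage points in an exact permutation test added after the data were seen (p = 0.0286, adjusted over 16 such tests p = 0.076).

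Between the subsets, TRBV31 clones of tumors used TRBJ2 more in CD8+ than in CD4+ cells. The 4 CD8+ values lay between 68.7% and 71.1% and the 4 CD4+ values between 62.2% and 65.5%, a difference of 5.87 percentage points (limma, adjusted p = 0.00058, 59.1% of segments passed). In dLNs the difference was -1.23 percentage points (limma, adjusted p = 0.26, 36.4% passed), with the CD8+ value the lower one in 4 of 4 mice. This sign was not stable, since the dLN difference was 1.32 when low-read clones were left out (at least 4 reads in CD4+ and 6 in CD8+ libraries) and 6.05 weighted by reads, and it was -0.62 without mouse 7. Weighted by reads, the tumor difference was 26.1 percentage points (limma, adjusted p = 0.060).

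Single J segments are described without a test. TRBJ2-7 was the most frequent partner in dLN CD4+, tumor CD4+ and dLN CD8+ cells, with 17.7%, 18.3% and 18.2% of TRBV31 clones. In tumor CD8+ cells TRBJ2-1 (18.8% ± 2.4) stood beside TRBJ2-7 (17.7% ± 1.0) within their spread. TRBJ2-7 was less frequent with TRBV31 than with the other segments in each group, by 1.14 to 4.39 percentage points. TRBJ2-3 was the more frequent with TRBV31 in each group, by 0.14 to 2.41 percentage points, and TRBJ1-2 likewise, by 0.39 to 2.35. In dLN CD8+ cells, where the TRBJ2 share differed, TRBJ2-7 was 3.16 and TRBJ2-5 was 2.52 percentage points lower with TRBV31, and TRBJ1-2 was 2.35 and TRBJ2-1 2.19 higher. In tumor CD8+ cells TRBJ2-1 was 3.96 percentage points higher.

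**Figure D3:**
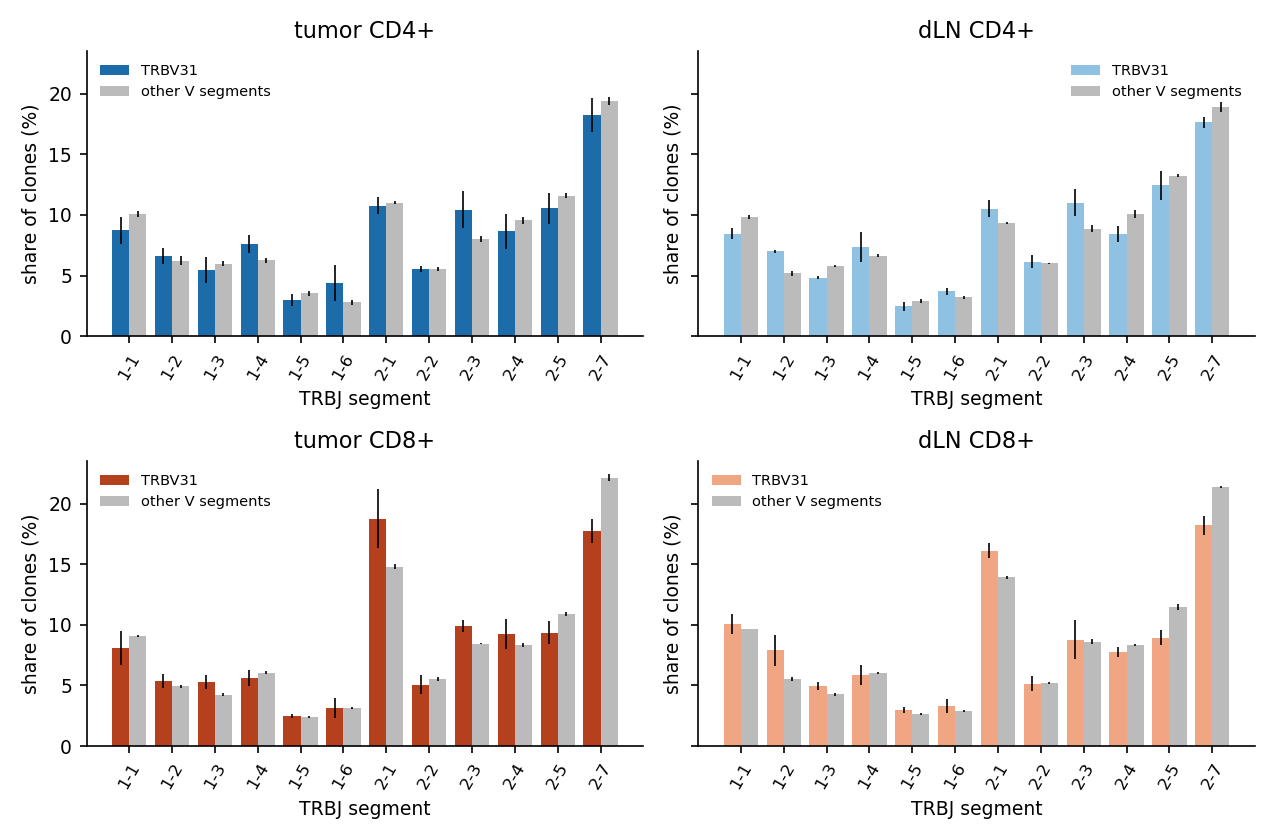
Share of clones (%) that used each TRBJ segment, for TRBV31 (coloured) and all other V segments (grey), in the 4 groups. Bars are means and error bars the SD over 4 mice. TRBJ2-7 is below the grey bar in each panel and TRBJ1-2 is above it.

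TRBV31 clones with a TRBJ2 segment were more often assigned the D segment TRBD2 than those of other V segments. Among such clones with a D assigned, TRBD2 made up 68.5% ± 1.0 in tumor CD4+, 72.2% ± 4.0 in tumor CD8+, 64.3% ± 1.8 in dLN CD4+ and 67.3% ± 1.1 in dLN CD8+ cells. The other segments had 56.9% ± 0.5, 63.2% ± 0.6, 54.8% ± 0.3 and 59.0% ± 0.4. The TRBV31 value was the higher one in 4 of 4 mice of each group (exact permutation p = 0.0286 each, adjusted over 24 tests added after the data were seen p = 0.040). A D segment was assigned to 77.4% to 82.4% of TRBV31 clones and to 74.0% to 79.4% of the others (group means), and the assignment rests on a few bases. In part of the TRBV31 clones germline V bases were counted between V and J, as described below. Whether they affect the D assignment was not tested. With TRBJ1, which lies upstream of TRBD2, TRBD2 was assigned to 8.38% to 9.56% of TRBV31 clones and 7.44% to 7.95% of the others.

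The CDR3 of TRBV31 clones was shorter than that of other clones in each group. It had on average 41.2 ± 0.2 nucleotides in tumor CD4+, 41.7 ± 0.2 in tumor CD8+, 40.9 ± 0.1 in dLN CD4+ and 41.0 ± 0.1 in dLN CD8+ cells (SD, n = 4 mice). The differences from the other segments were -0.61 (adjusted p = 0.00051, 77.3% of segments passed), -0.49 (adjusted p = 0.0060, 95.5%), -0.44 (adjusted p = 0.00068, 72.7%) and -0.88 nucleotides (adjusted p = 1.1e-06, 90.9%), by limma in the same order of groups, and had this sign in 4 of 4 mice of each. Only clones without a shifted frame were deposited, so lengths change in steps of 3 nucleotides. In dLN CD8+ cells 8.38% ± 1.22 of TRBV31 clones had a CDR3 of at most 33 nucleotides, against 5.26% ± 0.17 of the others, and 9.11% ± 0.56 had at least 48, against 12.5% ± 0.3.

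The lengths of the parts of the CDR3 depend on where the assignment ended the V segment. The V part had 11.9 to 12.1 bases in TRBV31 clones and 13.6 to 13.8 in the others (group means), with at most 13 and 18 bases. The bases between the V and J parts, which hold the D segment and added bases, numbered 10.2 to 10.9 with TRBV31 and 9.18 to 10.1 with the others. The V part of TRBV31 ended at base 13 at the latest, although 39.6% to 42.7% of its clones matched the germline to base 14 or beyond, so germline V bases were counted between V and J in such clones. This shortens the V part and lengthens the middle part of TRBV31, and the exact tests of both parts, which are among the 24 added ones, are therefore not used. The J part had 18.6 to 18.8 bases against 18.5.

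TRBV31 clones of tumors were longer in CD8+ than in CD4+ cells by 0.51 nucleotides (limma, adjusted p = 0.0074, 77.3% of segments passed), and in dLNs the difference was 0.01 (limma, adjusted p = 0.94, 68.2% passed). Without mouse 5 the tumor difference was 0.32, and weighted by reads it was -2.50 (limma, adjusted p = 0.15). Weighting by reads also turned the sign of the difference from other segments in CD4+ cells. The TRBV31 mean in tumor CD4+ cells was then 1.34 nucleotides above the others (limma, adjusted p = 0.033) and in dLN CD4+ cells 0.25 above them (adjusted p = 0.18). In CD8+ cells the sign stayed, with -1.96 in tumors (limma, adjusted p = 0.20) and -0.58 in dLNs (adjusted p = 0.0037), and without low-read clones the tumor CD8+ value was -0.30 (adjusted p = 0.049).

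**Figure D4:**
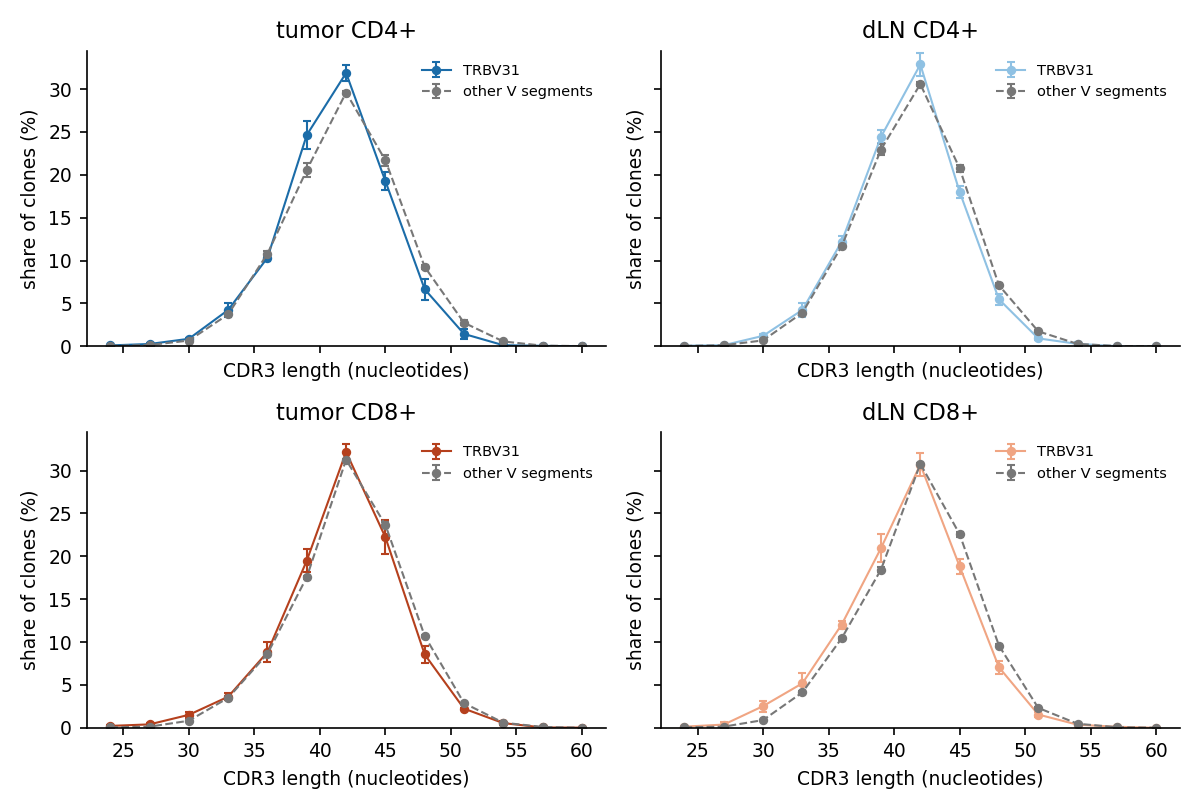
Distribution of CDR3 length (nucleotides, x axis) over clones (%, y axis) for TRBV31 (solid, coloured) and the other V segments (dashed, grey) in the 4 groups. Points are means and bars the SD over 4 mice. Each curve peaks at 42 nucleotides, and the TRBV31 curve lies above the grey one at 39 and below it at 48.

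TRBV31 reads were concentrated in fewer clones in tumors than in dLNs, and a few clones held most of them in CD8+ tumors. The 10 most abundant TRBV31 clones took 71.0% to 91.1% of the TRBV31 reads of tumor CD8+ cells and 40.1% to 60.3% of those of tumor CD4+ cells. In dLNs they took 10.3% to 29.97% in CD4+ and 4.33% to 12.6% in CD8+ cells. Reads were counted in order of clone size, and 50% of them was reached with 1, 1, 2 and 4 clones in tumor CD8+ cells of the 4 mice, with 5, 5, 15 and 18 in tumor CD4+ cells, with 79 to 242 in dLN CD4+ cells and with 223 to 282 in dLN CD8+ cells. The numbers in tumors and dLNs did not overlap. The other V segments followed the same order of groups in clonality (1 minus the Pielou index, higher where fewer clones hold the reads). Their mean was 0.48 ± 0.07 in tumor CD8+, 0.22 ± 0.05 in tumor CD4+, 0.10 ± 0.01 in dLN CD4+ and 0.04 ± 0.01 in dLN CD8+ cells. TRBV31 had 0.63 ± 0.13, 0.34 ± 0.06, 0.13 ± 0.04 and 0.07 ± 0.02, without a test.

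The most abundant TRBV31 clone of each mouse in tumor CD8+ cells is printed to show how unlike these leading clones were. Lower-case letters at both ends are the parts assigned to V and J, and capitals mark the bases between them. A capital T at base 14 matches the germline end shown above, since the V part was assigned to base 13 at most.
CD8+ clone of mouse 5, TRBJ2-4: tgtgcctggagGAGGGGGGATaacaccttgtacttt
CD8+ clone of mouse 6, TRBJ2-5: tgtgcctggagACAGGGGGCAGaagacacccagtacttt
CD8+ clone of mouse 7, TRBJ2-3: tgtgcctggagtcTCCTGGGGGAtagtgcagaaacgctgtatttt
CD8+ clone of mouse 8, TRBJ2-3: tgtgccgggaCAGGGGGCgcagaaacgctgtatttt
The 4 sequences differed, with 3 J segments among them, and 1 was seen in another mouse, that of mouse 5 with 2 reads in a dLN of mouse 6. The clone of mouse 8 was the largest TRBV31 clone of the data. In the part assigned to V it differed from the germline at 1 base, T7G (germline base first, counted from 1 at the first base of the CDR3). This clone was assigned TRBD1, and whether that base comes from the V or the D segment was not tested.

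The clone of mouse 8 made up 1.62% of the reads of the left and 1.90% of those of the right tumor. The clone of mouse 5 made up 1.21% and 1.47%. These and 1 CD4+ clone were the 3 TRBV31 clones above 1% of a tumor. The CD8+ clones of mouse 6 (0.41% and 0.44%) and mouse 7 (0.27% and 0.51%) were smaller, and the ratio between sides was 1.07 to 1.93 for the 4 clones. In the dLNs they were far rarer: mouse 8 had 0.039% and 0.032%, mouse 5 had 0.060% and 0.019%, mouse 6 had 0.00065% and 0.0012%, and in mouse 7 the clone was not detected on either side. Traces of 3 of these 4 clones stood in CD4+ tumor libraries of the same mouse, at up to 0.0028% of reads, and the source of these traces was not tested.

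The leading CD4+ clones of tumors are printed for mice 5, 7 and 8, and that of mouse 6 follows as form 1 below.
CD4+ clone of mouse 5, TRBJ2-4: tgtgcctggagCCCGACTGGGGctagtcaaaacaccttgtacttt
CD4+ clone of mouse 7, TRBJ1-2: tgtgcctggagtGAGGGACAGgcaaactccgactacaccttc
CD4+ clone of mouse 8, TRBJ2-5: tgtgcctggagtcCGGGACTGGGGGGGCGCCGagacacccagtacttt
The clone of mouse 7 was the remaining clone above 1%, with 1.03% of the left and 1.09% of the right tumor. The clone of mouse 5 had 0.88% and 0.87%, and that of mouse 8 had 0.29% and 0.40%. In the dLNs the clone of mouse 5 was found at 0.32% and 0.22% and that of mouse 7 at 0.036% and 0.096%, while the clone of mouse 8 was not detected in either dLN. Between the left and right tumor each of these clones differed by less than 1.4 times, the most being 1.37 times in mouse 8.

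The leading CD4+ clone of mouse 6, a TRBV31-TRBJ1-3 clone with a CDR3 of 45 nucleotides, was shared between mice. The same nucleotide sequence was also the most abundant TRBV31 clone of any CD4+ dLN, in mouse 5. Its reads were 0.67% (left) and 0.58% (right) in the tumors of mouse 6, 0.52% and 0.46% in mouse 5 and 0.15% and 0.19% in mouse 8. It was found in both fragments of each of these 6 tumors, and in the 6 dLNs of these mice at 0.040% to 0.44%. In mouse 7 it was not detected in CD4+ cells. Among TRBV31 clones of CD4+ tumors it was at rank 1 in mouse 6, rank 3 in mouse 5 and rank 6 in mouse 8.

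When clones were joined by V, J and translated CDR3, a step chosen after these values were seen, 4 nucleotide forms of this receptor appeared. They are printed because they differ only in the capitals between V and J.
Form 1: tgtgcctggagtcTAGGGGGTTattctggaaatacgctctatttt
Form 2: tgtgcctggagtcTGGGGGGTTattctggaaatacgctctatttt
Form 3: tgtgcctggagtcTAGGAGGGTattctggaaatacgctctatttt
Form 4: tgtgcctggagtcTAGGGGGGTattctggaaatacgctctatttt
Form 1 was found in 3 mice, form 2 in mouse 5, form 3 in mouse 7 and form 4 in 3 mice. Mouse 5 thus held 3 forms, mice 7 and 8 held 2 each, and mouse 6 held 1. With all forms together the receptor was present in each of the 8 CD4+ tumors, at 1.14% and 1.41% of reads in mouse 5, 0.67% and 0.58% in mouse 6, 0.21% and 0.18% in mouse 7 and 0.19% and 0.24% in mouse 8. It took 4.15% to 29.0% of the TRBV31 reads of a CD4+ tumor. The same receptor was found in each of the 8 CD4+ dLN samples, at 0.088% to 0.93% of reads.

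Such sharing was rare. Of 2838 TRBV31 receptors of CD4+ tumors, 2 were found in all 4 mice and 1, this receptor, in all 8 tumors. Of 73924 receptors of all V segments, 124 were found in all 4 mice, 28 in all 8 tumors, and 2 at 0.1% of reads or more in each of the 8. This receptor was 1 of these 2 and was at rank 3 of all by its mean share. In CD8+ tumors 6 of 5156 TRBV31 receptors were found in all 4 mice and none at 0.1% or more in each of the 8 tumors. Over all V segments 1564 of 265289 CD8+ receptors were found in all 4 mice, 0.59% against 0.12% for TRBV31, and none at 0.1% or more in each tumor.

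**Figure D5:**
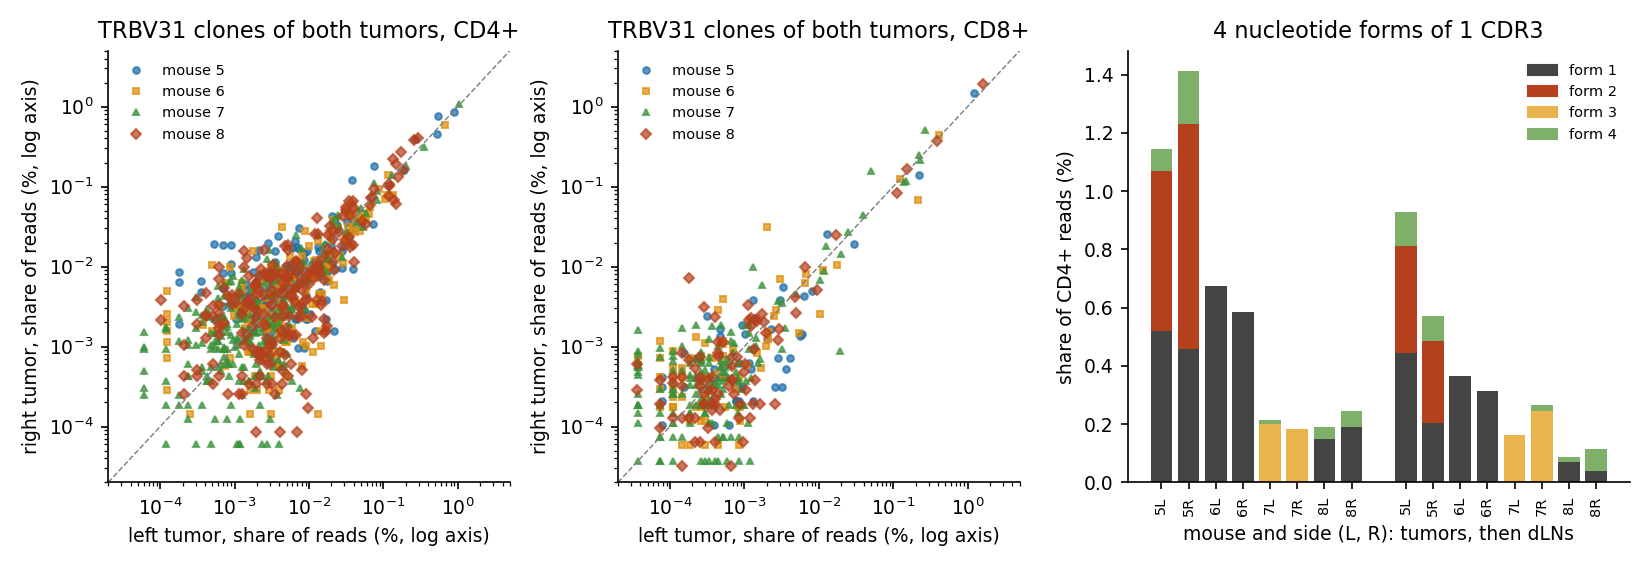
Left and middle panels: share of reads (%, log axes) in the left and right tumor of each TRBV31 clone found on both sides, 813 in CD4+ and 384 in CD8+ cells, with 1 point per clone and symbols for mice; the dashed line marks equal shares, and clones found on 1 side are not drawn. Right panel: share of CD4+ reads (%) of the TRBV31-TRBJ1-3 receptor by nucleotide form in tumors and then dLNs (L left, R right), present in each of the 16 samples.

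TRBV31 clones recurred on the 2 sides of a mouse much more than between mice. For overlap, the share of TRBV31 reads in clones found on both sides was taken on each side, and the geometric mean of the pair was used. In tumor CD8+ cells it was 77.6% to 92.9% within mice (mean 84.5% ± 6.9) and at most 0.34% in the 12 pairs of different mice. In tumor CD4+ cells it was 82.3% to 89.1% within mice (mean 86.3% ± 2.9) and 0.14% to 14.6% between mice, the highest pair being mouse 5 with mouse 6, which share form 1. The mean between mice was 5.31%, and it was 3.18% without mouse 5, 3.09% without mouse 6 and 10.0% without mouse 7, the mouse without form 1. Other V segments had 84.4% ± 2.9 in CD4+ and 82.4% ± 6.5 in CD8+ tumors within mice. Between mice their mean was 2.67% (1.48% to 8.60%) in CD4+ and 6.76% (1.53% to 19.1%) in CD8+ tumors. Counted as the share of all distinct TRBV31 clones of both sides (the Jaccard index), the difference within minus between mice was 26.0 percentage points in tumor CD4+, 6.28 in tumor CD8+, 8.60 in dLN CD4+ and 1.88 in dLN CD8+ cells. The within-mouse overlap was the highest of the 24 pairings in each group (exact permutation p = 0.0417, one-sided, the smallest possible).

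By distinct clones the picture was different, since 37.9% to 49.8% of the TRBV31 clones of a CD4+ tumor but 10.6% to 14.1% of those of a CD8+ tumor were found on the other side. The 2 fragments of a tumor overlapped by 82.7% ± 2.9 in CD4+ and 83.7% ± 7.1 in CD8+ cells (n = 8 tumors), close to the 2 sides. In dLNs the overlap of left and right was 37.1% to 49.9% in CD4+ cells (mean 42.5% ± 6.1) and 6.08% to 9.47% in CD8+ cells (mean 8.43% ± 1.58), against 0.22% to 6.93% and 0% to 8.93% between mice. The highest value between mice for dLN CD8+ cells was that of the left dLN of mouse 5 with the right dLN of mouse 8, the samples where the clone described next was most abundant. Other V segments had 47.9% ± 1.9 in CD4+ and 9.50% ± 0.88 in CD8+ dLNs within mice.

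The most abundant TRBV31 clone of any dLN CD8+ sample, a TRBV31-TRBJ2-1 clone of mouse 8, was also seen in the other mice. Its sequence is given for comparison.
CD8+ dLN clone, TRBJ2-1: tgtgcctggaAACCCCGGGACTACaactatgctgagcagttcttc
It had 912 reads (0.183%) in the right dLN of mouse 8 and none in the left one, 204 reads (0.0498%) in the left dLN of mouse 5, and 150 reads in 1 fragment of the left tumor of mouse 7. It had 4 to 6 reads in each of 3 more samples of mice 6, 7 and 8. Unlike the CD4+ receptor above, it was seen on 1 side of a tissue at a time, in 6 samples. Its highest level was 1245 times the highest level in mouse 6.

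Clones found in several mice are described without a test. Of 10682 CD8+ clones 2.48% were found in 2 or more mice, against 5.14% of the clones of other segments, which put TRBV31 4th from the lowest of 22 segments. In CD4+ cells the values were 1.83% of 8760 clones and 2.67%, 11th from the lowest. There were 9 CD8+ and 2 CD4+ TRBV31 clones found in all 4 mice. The CD4+ clone of them with the highest mean level and the CD8+ clone found in the most samples, chosen after their values were seen, are printed as examples.
CD4+ clone of 4 mice, TRBJ1-4: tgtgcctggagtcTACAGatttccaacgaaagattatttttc
CD8+ clone of 4 mice, TRBJ2-1: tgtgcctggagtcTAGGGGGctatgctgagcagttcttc
They have 5 and 7 bases between V and J, counted with the T that matches germline base 14. Such germline bases are also included in the means that follow. The mean was 6 over the 2 CD4+ and 8.44 over the 9 CD8+ clones of 4 mice, against 10.3 and 10.8 over all TRBV31 clones of the subset. The other CD8+ clones of 4 mice with a high mean level had 14, in the dLN clone above, and 11. The first was found in 9 of 16 samples at up to 0.0231% of reads, and the second in 12 of 16 at up to 0.0075%.

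In all mouse repertoires of tumors except the CD8+ one of mouse 7, most TRBV31 reads belonged to clones that were also found in a dLN of the mouse. In CD8+ cells the share was 45.8% to 88.1% (mean 72.7% ± 18.9), although these were 4.09% to 5.48% of the tumor clones. In CD4+ cells it was 66.2% to 81.5% of reads (mean 75.3% ± 7.5) and 21.9% to 31.7% of clones. In CD8+ mouse 6 this rests on a leading clone at 0.00065% and 0.0012% of the dLN reads. For comparison, clones also found in the tumor libraries of the other subset held 16.3% to 71.5% of the CD8+ (mean 50.2% ± 24.9) and 15.8% to 44.7% of the CD4+ TRBV31 reads of tumors (mean 24.7% ± 13.5), and in CD8+ mouse 7 this share (47.2%) was above that found in the dLN (45.8%). For other V segments the shares of reads in clones of the dLN were 72.0% ± 13.1 and 70.5% ± 2.9. By clones, TRBV31 was below the other segments in CD8+ cells (4.91% ± 0.62 against 7.04% ± 0.91, lower in 4 of 4 mice, exact permutation p = 0.0286, adjusted p = 0.040). In CD4+ cells it was 26.7% ± 4.7 against 20.8% ± 2.8, higher in 4 of 4 mice but with overlapping values (exact permutation p = 0.11, adjusted p = 0.14). These exact tests set TRBV31 against the other segments without pairing the values of the same mouse.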

How the data were processed

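TCRβ libraries of 4 mice were analysed. The authors prepared them by template switching with primers in the constant segment and no molecular identifiers, trimmed reads with Cutadapt 3.2 (per the labels), filtered them with PRINSEQ and assembled productive clones with MiXCR against IMGT mouse segments. They deposited the read count of each clone, its fraction of the library (count over total) and, per the file headers, other columns with the positions of V, D and J within the CDR3. These positions were read from the values as counted from 0. The deposited counts were those before down-sampling, so each library was drawn once, without replacement, to 6 reads per sorted cell, with cell numbers from the study's supplement. Clones were defined by V, J and the nucleotides of the CDR3, and a mouse repertoire the union of both sides and all fragments.

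Shares were tested with edgeR 4.0.16 (quasi-likelihood, library size the total, no further scaling), and TRBJ2 shares and lengths with limma 3.58.1, over the 22 of 26 V segments with a mean of at least 0.1% of clones, in R 4.3.3. Adjusted p under 0.05 passed. Exact permutation tests, two-sided, used all 70 splits of 4 against 4 values. Both sets of values came from the same 4 mice, and these tests did not use that pairing. For left to right overlap all 24 pairings were used. The fits were tested on simulated data. The segment, lists and tests were chosen with earlier results of these data known. Clones named were the leading tumor clone of each mouse and subset, the leading dLN clone of each subset and, of the clones of all 4 mice with the highest means, the 3 that are printed. V segments named were those nearest in level and most correlated, and TRBV13-2 was named after its value was seen. P-values over mice measure the spread between these 4 animals.

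Equal numbers mark the same mouse in the labels, which pairs the samples. Deviations of V segment shares from the group means correlated between samples of a mouse with r from -0.43 to 0.58 (median 0.12 over 24 pairs, 14 above 0.1). Alternatives were other depths and draws, minimum reads, clones by amino acid sequence, removal of a clone where another mouse held it at 100 times the level or more, TMM, no V segment filter, DESeq2 1.42.0, exact tests, the Jaccard index for overlap, the replicate block, single sides, weighting by reads and each mouse left out.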

Additional observations from a re-analysis of the deposited data

Results flagged for a closer look

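The gap between CD4+ and CD8+ cells in the TRBV31 share of clones differed between tumors and dLNs, by 0.52 on the log2 scale (edgeR, adjusted p = 4.6e-09). The CD8+ minus CD4+ difference in the TRBJ2 share of TRBV31 clones was above 0 in 4 of 4 mice in tumors and below 0 in 4 of 4 mice in dLNs, 7.10 percentage points apart (exact permutation p = 0.0286, adjusted over 2 tests p = 0.057). The dLN difference was 1.32 without low-read clones and 6.05 weighted by reads, above 0 in both.

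Of 48 groups of values examined for a sample far from the others, 3 had one, where 1 in 20 by chance would give 2.4. Mouse 5 had 93.4% of its TRBV31 reads of CD8+ tumors with TRBJ2, against 78.8% to 79.0% in the other mice. Mouse 8 had 10.1 bases between V and J in TRBV31 clones of CD4+ tumors, against 10.5 in the other mice. Mouse 6 had a left to right overlap of 6.08% in dLN CD8+ cells, against 9.04% to 9.47%.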

How the results depend on the processing

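Of 342 alternatives over 26 results, 307 kept both the direction and the side of the threshold, and 10 results did so under each of theirs. Weighted by reads, the TRBJ2 share of TRBV31 minus others in tumor CD8+ cells became 26.7 percentage points (limma, adjusted p = 0.046), and CD8+ minus CD4+ became 26.1 in tumors (0.060) and 6.05 in dLNs. Length against others became 1.34 nucleotides in tumor CD4+, -1.96 in tumor CD8+ (0.20) and 0.25 in dLN CD4+ cells, and CD8+ minus CD4+ became -2.50 in tumors (0.15) and -0.44 in dLNs. The cause was not tested. The TRBJ2 share against others in tumor CD8+ cells was 0.13 with all reads as deposited and 0.18 by amino acid sequence, and CD8+ minus CD4+ in dLNs was 1.32 without low-read clones.

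The tumor minus dLN read share was -0.46 in CD4+ and -0.0065 in CD8+ cells by the exact permutation test. Without the leading clone it was -0.96 in CD8+ cells (edgeR, adjusted p = 0.0097), and the subset gap was -0.30; removing that clone takes more reads from tumors than from dLNs, so neither value is a test. With a mouse left out the CD8+ read share ranged from -0.13 to 0.24, the subset gap from 0.42 to 0.61, the TRBJ2 share against others from -1.43 to -0.18 (tumor CD4+), -0.41 to 0.37 (tumor CD8+) and -0.38 to 0.043 (dLN CD4+), and the dLN length difference from -0.097 to 0.047. The overlap differences ranged from 75.3 to 84.5 (tumor CD4+), 81.5 to 86.7 (tumor CD8+), 36.9 to 42.3 (dLN CD4+) and 5.63 to 6.90 percentage points (dLN CD8+), and no p under 0.167 is possible with 3 mice.

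The replicate block by mouse, for example -1.11 for CD8+ minus CD4+ clone share in tumors, changed no call for TRBV31, but raised the V segments called for read share, tumor minus dLN in CD8+ cells, from 10 to 15. With DESeq2 those called for the CD4+ read share, tumor minus dLN, fell from 2 to 1. Weighted by reads they fell for TRBJ2 against others from 12 to 0, 18 to 7 and 8 to 3, for TRBJ2 between subsets from 13 to 1 and 8 to 2, for length against others in tumors from 17 to 7 and 21 to 1, and for length between subsets in tumors from 17 to 3. Depth limits clones below 3 reads, and 4 mice limit every exact p.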
